A study of Mus musculus with 6 samples.

Results

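The genes described here encode the actin filament system and its closest partners, 37 genes fixed by name and found by symbol among the 21761 genes of the count table, where all 37 were present. They comprise cytoplasmic gamma-actin, the Arp2/3 complex, nucleation and elongation factors, monomer-binding and turnover proteins, capping protein, crosslinkers, myosin II, adhesion linkers and vimentin. The libraries were RNA-seq of mouse LT-HSCs (haematopoietic stem cells with long-term repopulating ability), 200 sorted cells per library, from 2 genotypes with 3 libraries each. Control cells were Rosa26 +/+;Mx1-Cre tg/+, and IMP1 cells were Rosa26 I/+;Mx1-Cre tg/+, that is, they carried 1 conditional copy of IMP1 (gene Igf2bp1), a protein that binds RNA, at Rosa26. Both groups carried the interferon-inducible Mx1-Cre transgene, came from CD45.2 marrow grown in lethally irradiated CD45.1/2 hosts, received poly(I:C), and were sorted 8 weeks after the last injection as CD45.2+ LSK CD150+ CD48- CD34- cells. The ages of the animals and the number of animals behind a library were not given, so the p-values measure the spread between these libraries. The Mx1 promoter that drives Cre responds to interferon in many cell types and is not specific to stem cells.

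Actin monomers add to and leave both ends of a filament. The Arp2/3 complex starts branches when WASP-family proteins activate it, formins and Ena/VASP proteins extend unbranched filaments, and profilin and thymosins hold the monomer pool. Cofilin, gelsolin, coronin and cyclase-associated protein take filaments apart, capping protein closes the fast-growing end, and crosslinkers, myosin II and adhesion proteins turn filaments into force and attachment. In blood stem cells this machinery serves homing, lodging in the niche and division. IMP1 is best known for binding the zipcode, a short element in the 3' UTR of the beta-actin transcript Actb, through which it governs where that transcript is translated.

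Library totals were 25749898 to 27338450 counts in Control and 50220629 to 67083116 in IMP1, on average 2.26 times as many, so depth differed with genotype. Igf2bp1 had 0, 0 and 1 counts in Control and 1870, 2084 and 2016 in IMP1 libraries, as the labels have it. The LT-HSC markers Kit, Ly6a, Slamf1, Procr and Mecom were present in all 6 libraries, and the 10 markers of that list summed to 1623 to 1818 CPM in Control and 2128 to 2343 CPM in IMP1 libraries, without overlap. Cd34 RNA stood at 263, 317 and 270.0 CPM in Control and 213, 141 and 151 CPM in IMP1 libraries despite the sort against the protein. Cd48, also sorted against, and Flt3 went the other way in the mean, with overlapping groups. Cd48 averaged 7.62 CPM in Control and 12.7 CPM in IMP1 libraries, and Flt3 10.5 and 18.7 CPM. CPM give the count of a gene relative to the total of its library, after TMM (trimmed mean of M values) scaling. The test was edgeR's quasi-likelihood test over all 12807 genes that passed a filter on low counts, with Benjamini-Hochberg adjustment over those genes and a threshold of 0.05.

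To look for the binding elements of SRF and of IMP1, sequences were taken from the reference. SRF, the transcription factor that senses free actin through its MRTF partners, binds the CArG box. Of the 37 genes, 36 had a promoter of 250 bases before to 50 after the start in RefSeq (GRCm38.p6), and 4 of these promoters held a CArG box on either strand, as did 1.81% of 27025 genes with such a promoter. The promoters of Actg1 (chr11:120348446-120348745, minus strand), Myl6 (chr10:128492960-128493259, minus strand) and Vcl (chr14:20929148-20929447, plus strand) are shown 5′ to 3′, with the CArG box in capitals, because the first pair stood lower in every IMP1 library and the third did not.
Actg1: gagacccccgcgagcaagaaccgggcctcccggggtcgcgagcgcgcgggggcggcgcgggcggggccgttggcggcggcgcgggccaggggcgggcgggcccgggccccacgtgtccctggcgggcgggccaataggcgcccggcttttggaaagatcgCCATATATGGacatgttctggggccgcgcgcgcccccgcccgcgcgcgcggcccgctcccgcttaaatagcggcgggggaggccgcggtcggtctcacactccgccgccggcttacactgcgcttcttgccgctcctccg
Myl6: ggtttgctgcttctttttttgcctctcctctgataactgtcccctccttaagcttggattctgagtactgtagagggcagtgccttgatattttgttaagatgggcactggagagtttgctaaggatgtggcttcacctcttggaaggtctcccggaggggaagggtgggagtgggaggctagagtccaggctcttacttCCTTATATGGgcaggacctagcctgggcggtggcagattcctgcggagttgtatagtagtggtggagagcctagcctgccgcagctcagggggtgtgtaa
Vcl: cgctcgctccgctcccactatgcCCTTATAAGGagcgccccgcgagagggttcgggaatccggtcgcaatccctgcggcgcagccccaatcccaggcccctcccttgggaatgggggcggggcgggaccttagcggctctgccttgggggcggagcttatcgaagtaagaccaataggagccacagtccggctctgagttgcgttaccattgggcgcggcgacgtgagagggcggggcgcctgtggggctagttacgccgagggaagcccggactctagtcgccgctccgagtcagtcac
The box began 90 bases before the start in Actg1, 50 in Myl6 and 227 in Vcl. The fourth, Arpc4, held CCTAATTTGG at the far edge of its window, 250 bases before the start. Of these 4 genes, Actg1 and Myl6 had separated groups and Arpc4 and Vcl had overlapping ones, as given below. Such a match is a description and not a measured site.

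The zipcode was searched as CGGACT followed, after 10 to 25 bases, by ACAC, its variant ACAT, or else by CCAC, with its variant CCAT, on the sense strand of the longest protein-coding transcript of each gene (GENCODE M21, GRCm38). It is shown for Actb, where it lies in the 3' UTR (chr5:142903769-142903796, minus strand), and for the 1 gene of the 37 that held a match, the talin gene Tln1, where it lies in the coding sequence (chr4:43539390-43539409, minus strand). Capitals mark the first and last elements.
Actb: CGGACTgttactgagctgcgttttACAC
Tln1: CGGACTgtctcagattCCAT
The motif was found in 5.89% of 19997 genes of the count table with such a transcript. Actb, which is not one of the 37, stood at 8004, 8693 and 6852 CPM in Control and 7385, 8576 and 8694 CPM in IMP1 libraries (log2 fold change 0.07, adjusted p = 0.818). The match in Tln1 is likewise a description and not a measured site. Tln1 is given with the adhesion linkers below.

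None of the 37 genes passed the threshold (0 of 36 tested), where 0.211% of all tested genes did (27 genes, of which 9, or 0.0703%, were higher and 18, or 0.141%, lower in IMP1 cells, against 9 higher and 7 lower with scaling by library totals alone). At an unadjusted p under 0.05 there were 13 of 36, all lower in IMP1 cells, where 14.3% of all tested genes met it in either direction with 7.63% on the lower and 6.67% on the higher side. At an adjusted p under 0.10 there were 3 of 36, Actg1, Myl6 and Coro1a, all lower, where 1.8% of all tested genes met it and 1.08% on the lower side. Every IMP1 library lay below every Control library for 12 of the 36, and above for 0, where 11.1% of all tested genes lay below and 10.7% above. Log2 fold changes were negative for 24 of 36, with a median of −0.11, against 47.8% and a median of 0.03 over all tested genes. Scaled by library totals alone, 21 of 36 were negative with a median of −0.02, and the median over all tested genes was 0.12. Among the 7810 tested genes at least as abundant as the least abundant of the 36, 53.6% were negative with a median of −0.04, and 15% had every IMP1 library below. That floor is low for the 36, of which 20 lay above the 90th percentile of mean CPM, so genes of like level were not compared. Log2 fold changes of the 36 ran from −1.05 for Gsn to 0.60 for Actn1. DESeq2, run as an alternative, called 8 of the 36, all lower in IMP1 cells, namely Actg1, Arpc1b, Actr3, Cap1, Gsn, Coro1a, Capzb and Myl6, where it called 5.55% of the genes it tested and 3.12% on the lower side. With a stricter filter on low counts edgeR called Actg1 alone (adjusted p = 0.0377), where it called 1.12% of genes and 0.633% on the lower side. In bulk libraries, less RNA per cell and fewer cells that carry an RNA cannot be told apart. Summed markers of monocytes and of T and NK cells, carried by Lyz2 and Nkg7, were also lower in every IMP1 library, as were mast and basophil markers. Of the monocyte genes 3 were lower and 3 higher in the IMP1 mean, and of the T and NK genes 1 and 3. Summed erythroid markers were higher in every IMP1 library, and summed neutrophil markers overlapped, though single genes among them did not. The part of other cells in these counts was not tested.

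**Figure D1:**
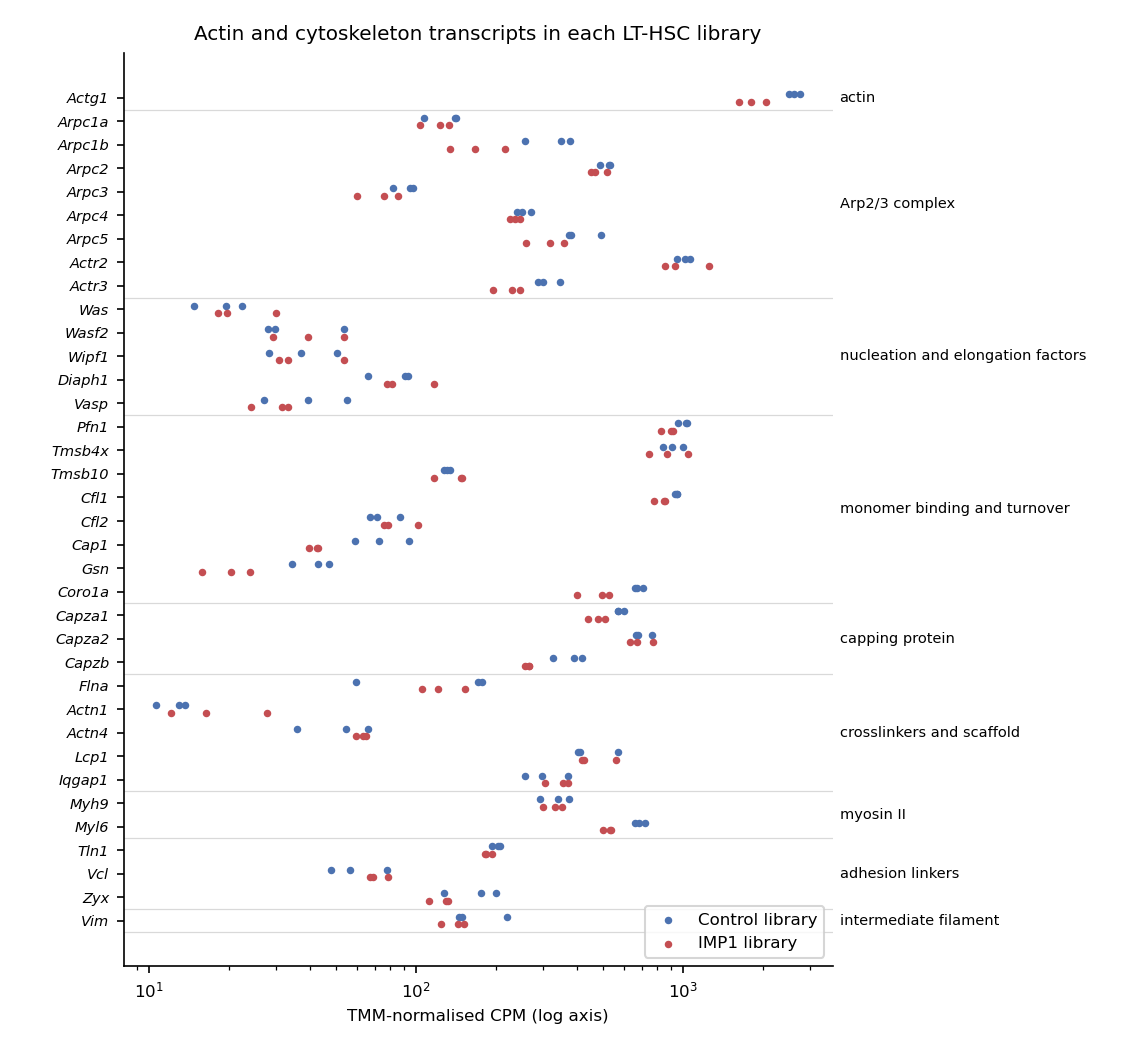
TMM-normalised CPM (log axis) of the 36 tested genes in each library, grouped by role, with Control libraries in blue and IMP1 libraries in red. Actg1 is the most abundant, and red points lie wholly to the left of blue ones for 12 genes, among them Actg1, Arpc1b, Gsn, Coro1a, Capzb and Myl6.

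These transcripts are abundant in LT-HSCs. Of the 36, 20 lay above the 90th percentile of mean CPM over all tested genes and 16 above the 95th. The 37 genes together took 1.33% to 1.38% of the counts of a Control library and 1.21% to 1.23% of an IMP1 library, and their summed level was 13741 to 14169 CPM per Control library and 11771 to 11937 CPM per IMP1 library. The groups did not overlap in either measure. Actg1 made up 18.1% to 19.4% of the counts of the 37 genes in Control libraries and 13.6% to 17.2% in IMP1 libraries.

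Actg1 encodes cytoplasmic gamma-actin, which together with beta-actin forms the filaments of non-muscle cells. It stood at 2616, 2751 and 2490.3 CPM in Control and 1802, 1617 and 2045 CPM in IMP1 libraries. Every IMP1 library lay below the lowest Control library, and Actg1 had the lowest p of the 36 genes (log2 fold change −0.52, SE 0.09, adjusted p = 0.0750). Fold changes are on the log2 scale throughout, IMP1 against Control. The adjusted p ranged from 6.53e-05 to 0.206 over 17 alternatives. Its share of the 2 cytoplasmic actin transcripts, Actg1 over Actg1 plus Actb, was 24.6%, 24.04% and 26.7% of counts in Control and 19.6%, 15.9% and 19.0% in IMP1 libraries, again without overlap. Their longest transcripts measure 1952 bases for Actg1 and 1920 for Actb. With the joint trend on length and GC content removed, as described further on, the log2 fold changes were −0.35 for Actg1 and 0.22 for Actb. Reads that match both coding sequences could have been split between them, and how the authors assigned such reads was not given.

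The Arp2/3 complex holds the actin-related proteins Arp2 (Actr2) and Arp3 (Actr3), which form the base of a new branch, and 5 ARPC subunits, of which p41 exists as the alternative forms Arpc1a and Arpc1b. Of its 8 genes, 7 had negative fold changes (median −0.21), 3 had separated groups and 0 passed. Removal of a joint trend on length and GC content left 5 of 8 negative (median −0.13). Arpc1b, the form prominent in blood cells, stood at 378, 348 and 255 CPM in Control and 215, 134 and 166 CPM in IMP1 libraries. The highest IMP1 library was below the lowest Control library (log2 fold change −0.93, SE 0.21, adjusted p = 0.101). Its partner form Arpc1a stood at 140.3, 107 and 141 CPM in Control and 123, 103 and 133 CPM in IMP1 libraries, with overlapping groups (−0.11, 95% interval −0.50 to 0.27, adjusted p = 0.820). Actr3 stood at 345, 300.1 and 287 CPM in Control and 228, 194 and 244 CPM in IMP1 libraries, with no overlap (−0.48, SE 0.13, adjusted p = 0.150). Actr2 was the second most abundant of the 37, at 953, 1014 and 1063 CPM in Control and 857, 1248 and 936 CPM in IMP1 libraries. IMP1 2 was the highest of all 6 libraries for Actr2 and IMP1 1 the lowest (0.01, interval −0.31 to 0.32).

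Arpc5, which encodes the smallest subunit, p16, stood at 382, 492 and 374 CPM in Control and 317, 359 and 258 CPM in IMP1 libraries. The groups were separated by a narrow gap between Control 3 and IMP1 2 (−0.42, adjusted p = 0.289). The remaining subunits Arpc2, Arpc3 and Arpc4 had overlapping groups, with fold changes of −0.11, −0.32 and −0.11 and adjusted p-values of 0.660, 0.498 and 0.714. Summed over its 8 genes the complex stood at 3020, 3124 and 3022 CPM in Control and 2499, 2827 and 2557 CPM in IMP1 libraries, all IMP1 libraries lower. Per kilobase of the longest transcript, Control levels were highest for Arpc2 (359.8 CPM per kb) and Actr2 (278) and lowest for Arpc1a (76.9), and these 3 kept their places with the median length of coding transcripts (369, 278 and 79.4). The order of the other 5 depended on the length used.

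Upstream of branching and elongation, none of the tested genes among the 37 had separated groups. Other genes of nucleation are given further on. Of 6 nucleation and elongation factors 5 were tested, and 4 had positive fold changes (median 0.14), or 3 after joint removal of the length and GC trends (median 0.00696). Single libraries decided this direction: without IMP1 2 all 5 were negative (median −0.12), and without Control 3 it was 4 of 5 (median −0.00157). Was encodes the blood-cell activator of Arp2/3 and averaged 18.8 ± 3.78 CPM in the Control libraries and 22.5 ± 6.47 CPM in the IMP1 libraries (mean ± SD, n = 3 each). Its relative Wasf2, a WAVE protein, stood at 37.1 ± 14.5 and 40.8 ± 12.3 CPM, and Wipf1, which stabilises WASP, at 38.6 ± 11.2 and 39.2 ± 12.7 CPM. The formin gene Diaph1 stood at 83.3 ± 15.1 and 92.00 ± 21.4 CPM. Vasp, an elongation factor, had the sole negative value, at 40.6 ± 14.1 against 29.5 ± 4.87 CPM (−0.46, interval −1.17 to 0.25, adjusted p = 0.556). The intervals of all 5 spanned 0 and were wide, that of Was running from −0.50 to 1.02. Evl, the Vasp relative, had 0, 0 and 1 counts in Control and 6, 0 and 0 in IMP1 libraries and was not tested. A count of 0 allows up to 0.119 CPM in the Control libraries and 0.0578 CPM in the IMP1 libraries concerned, as counting error alone, taking 3 counts as the limit.

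Among the 8 genes of monomer binding and filament turnover, 6 had negative fold changes (median −0.19) and 5 had separated groups, all with IMP1 lower. With length and GC trends both removed, 5 of 8 were negative (median −0.05). Coro1a encodes coronin 1A, a filament-binding protein of leukocytes that works with cofilin and Arp2/3. It stood at 711, 674 and 663 CPM in Control and 496, 402 and 527 CPM in IMP1 libraries, every IMP1 library below every Control library (−0.52, SE 0.11, adjusted p = 0.0991). Gsn encodes gelsolin, which severs and caps filaments in response to calcium, and stood at 43.02, 34.3 and 47.1 CPM in Control and 20.3, 23.9 and 15.7 CPM in IMP1 libraries. It had the most negative fold change of the 36, with every IMP1 library lower (−1.05, SE 0.27, adjusted p = 0.134). Cap1, whose product recycles cofilin-bound monomers, stood at 72.4, 94.1 and 58.8 CPM in Control and 42.6, 42.9 and 39.8 CPM in IMP1 libraries, which were much alike and all lower (−0.85, SE 0.22, adjusted p = 0.137).

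The abundant Cfl1 and Pfn1 had small fold changes. Cfl1, the main non-muscle cofilin, stood at 951, 951 and 937 CPM in Control and 857, 849.7 and 777 CPM in IMP1 libraries (−0.19, interval −0.37 to −0.02, adjusted p = 0.307). Pfn1, which encodes profilin, stood at 956, 1032 and 1026 CPM in Control and 916, 905 and 829 CPM in IMP1 libraries (−0.19, interval −0.37 to −0.00269, adjusted p = 0.342). Groups of both were separated, but the gaps were small against the levels, and on library totals alone the fold changes came to −0.10 and −0.09. Cfl2, the muscle-type cofilin, stood at 71.3, 87.4 and 67.2 CPM in Control and 75.7, 102 and 78.6 CPM in IMP1 libraries and overlapped (0.18, adjusted p = 0.728). The beta-thymosins, which sequester monomers, showed no separation. Tmsb4x stood at 1002, 908 and 842 CPM in Control and 1044, 869.9 and 746 CPM in IMP1 libraries (−0.05, interval −0.35 to 0.25), and Tmsb10 at 131, 134 and 128 CPM in Control and 147, 148 and 116 CPM in IMP1 libraries (0.07, interval −0.26 to 0.40). IMP1 3 was the lowest of all 6 libraries for both thymosins.

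Capping protein is a dimer of an alpha chain, from Capza1 or Capza2, and the beta chain from Capzb. Capzb stood at 389.9, 417 and 326 CPM in Control and 257, 266 and 264 CPM in IMP1 libraries. The IMP1 values lay close together and below every Control value (−0.53, SE 0.12, adjusted p = 0.101). Capza1 stood at 601, 572 and 569 CPM in Control and 512, 440.5 and 479 CPM in IMP1 libraries, also separated (−0.28, SE 0.09, adjusted p = 0.229). Capza2 stood at 667, 765 and 681 CPM in Control and 672, 772 and 631 CPM in IMP1 libraries and overlapped throughout (−0.03, interval −0.27 to 0.21).

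Of the 11 crosslinker, myosin, adhesion and intermediate filament genes, 1 had separated groups, Myl6. The crosslinkers were positive in 4 of 5 (median 0.16), but in 2 of 5 with the trends on length and GC both removed (median −0.02), and the median was 0.05 without Control 2. Myl6, the essential light chain of non-muscle myosin II, stood at 659, 722 and 687 CPM in Control and 502, 535 and 531 CPM in IMP1 libraries, with no overlap (−0.40, SE 0.08, adjusted p = 0.0907). Its heavy chain Myh9 stood at 341, 292 and 375 CPM in Control and 299, 353 and 331 CPM in IMP1 libraries and overlapped (−0.04, interval −0.32 to 0.25). The alpha-actinins Actn1 and Actn4 had the highest fold changes of the 36, 0.60 and 0.27. Actn1 stood at 13.6, 10.6 and 12.9 CPM in Control and 16.4, 27.6 and 12.1 CPM in IMP1 libraries, IMP1 2 being high and IMP1 3 within the Control range (interval −0.32 to 1.52). Actn4 stood at 65.8, 35.7 and 54.8 CPM in Control and 64.8, 59.8 and 63.4 CPM in IMP1 libraries, Control 2 being low and the others alike. Flna, which encodes filamin A, had the widest relative spread in Control among the 36, Control 2 being low, at 171, 59.3 and 176 CPM, with 121, 105 and 153 CPM in IMP1 libraries (−0.10, interval −0.96 to 0.75). Lcp1, the plastin of blood cells, stood at 461 ± 93.6 and 469.6 ± 81.02 CPM, and the scaffold gene Iqgap1 at 307 ± 58.3 and 345 ± 35.1 CPM.

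Talin and vinculin couple integrins to filaments. Tln1 stood at 200.4 ± 7.77 and 185 ± 5.89 CPM (−0.11, adjusted p = 0.696), and Vcl at 60.8 ± 15.6 and 71.7 ± 6.20 CPM (0.24, adjusted p = 0.688). Zyx, which gathers at stretched filaments, met the unadjusted threshold, but its groups overlapped, at 175, 200.0 and 127 CPM in Control and 130.0, 112 and 132 CPM in IMP1 libraries (−0.42, adjusted p = 0.347). The intermediate filament gene Vim stood at 171 ± 42.6 and 139.8 ± 14.2 CPM (−0.29, adjusted p = 0.546), Control 3 being the highest library.

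**Figure D2:**
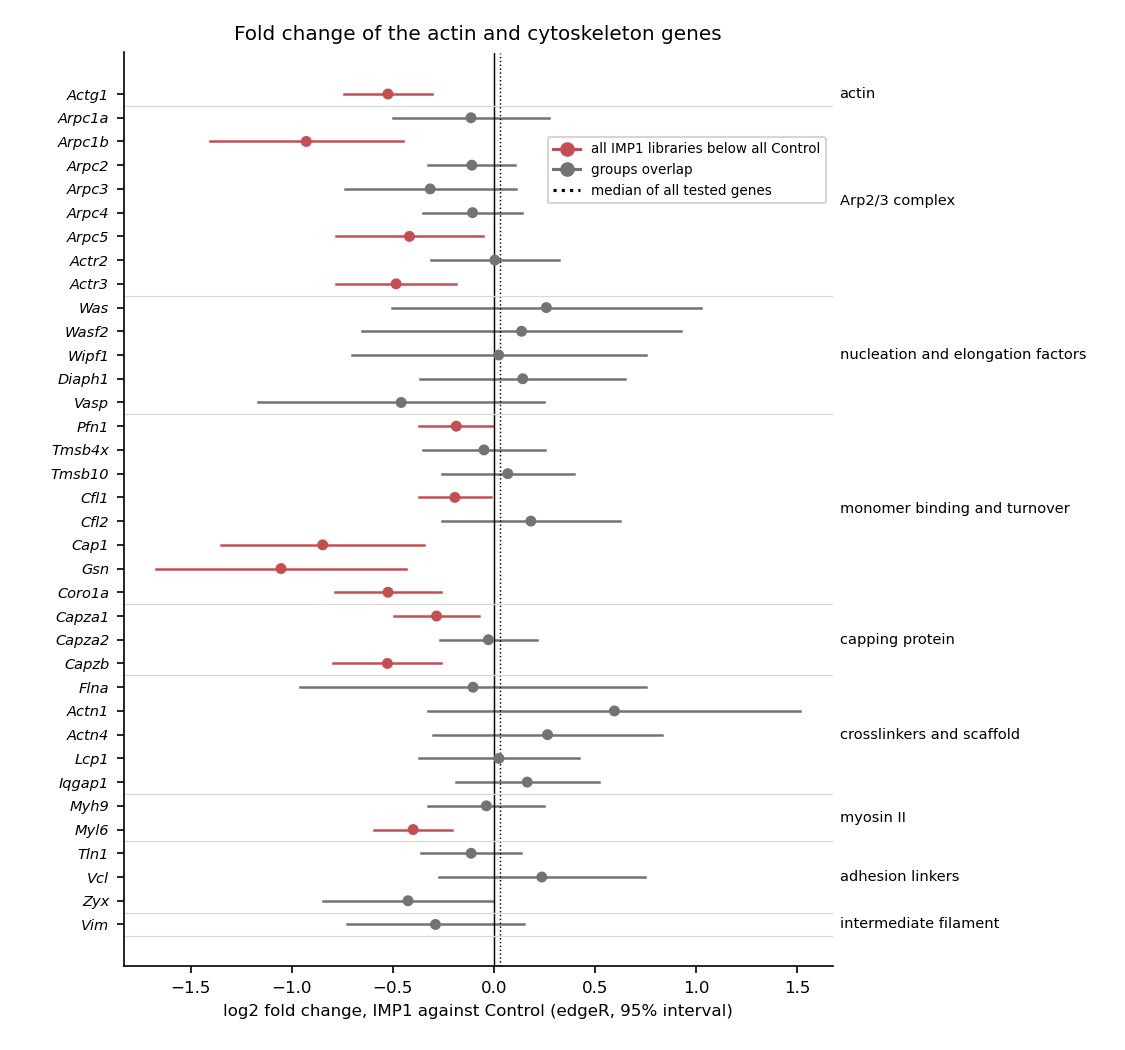
Log2 fold change of IMP1 against Control from edgeR, with 95% intervals, for the 36 tested genes by role. Genes whose libraries do not overlap are red, and all 12 lie left of 0, from −0.19 for Pfn1 to −1.05 for Gsn, while the nucleation factors and crosslinkers scatter around the dotted median of all tested genes at 0.03.

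Because library scaling cancels in a ratio of 2 genes of the same library, related genes were also compared as ratios of counts, 7 pairs in all. The pairs Actg1 to Actb and Actr3 to Actr2 were not among those planned and were added after the values were seen. Actg1 to Actb was 0.327, 0.317 and 0.363 in Control and 0.244, 0.189 and 0.235 in IMP1 libraries, a difference of −0.60 on the log2 scale, lower in 3 of 3 IMP1 libraries. Arpc1b to Arpc1a was 2.69, 3.26 and 1.80 in Control and 1.75, 1.30 and 1.25 in IMP1 libraries (−0.82), where IMP1 1 came close to Control 3 but stayed below it. Actr3 to Actr2 was 0.362, 0.296 and 0.270 in Control and 0.266, 0.156 and 0.261 in IMP1 libraries (−0.47), again with IMP1 below. Each of these 3 pairs gave p = 0.1 in an exact two-sided permutation test, the smallest that 3 against 3 libraries allow, and 0.233 adjusted over the 7 pairs. For Actg1 to Actb and Actr3 to Actr2 these p-values rest on the values that picked the pairs, so they are description only. The adjustment took in these 2 added pairs, so the adjusted 0.233 of Arpc1b to Arpc1a depends on them and is description as well. The ratios of Cfl2 to Cfl1 (0.37), Capza2 to Capza1 (0.26), Tmsb10 to Tmsb4x (0.12) and Actn4 to Actn1 (−0.21) overlapped between groups, with exact permutation p-values of 0.200 to 0.800.

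**Figure D3:**
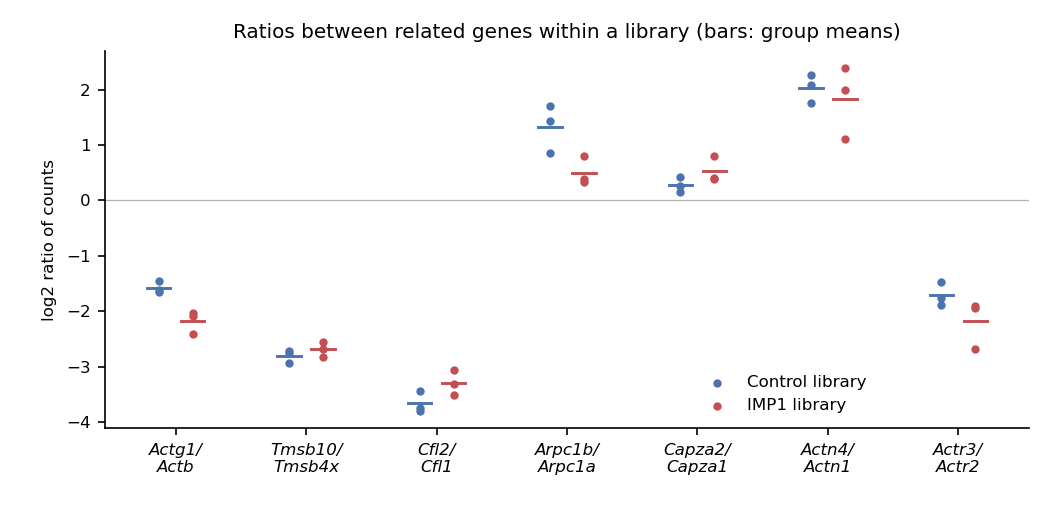
Log2 ratio of the counts of related genes within each library, Control in blue and IMP1 in red, with bars at the group means. The groups are apart for Actg1 to Actb, Arpc1b to Arpc1a and Actr3 to Actr2, with IMP1 lower, and overlap for the other 4 pairs.

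The 12 genes with separated groups were set beside the others by level and length. Their median level was 446 CPM, against 132 CPM for the 24 with overlapping groups. Their longest annotated transcripts ran from 1702 to 3193 bases, while the 24 others spanned 690 to 8456 bases. Median GC content was alike, at 52.2% and 51.3%. Over all genes with a mean log2 CPM above 3, fold changes went with transcript length. In 4 equal bins of length, the median went from −0.17 in the shortest to −0.09, 0.06 and 0.17 in the longest. The 12 tested genes of the actin system in the shortest bin had a median of −0.25, the 11 in the next −0.40, the 6 in the third 0.02 and the 7 in the longest 0.14. Tmsb10 and Tmsb4x, the shortest of all 36 by longest annotated transcript, lay near 0. That order depended on the length used. By the median length of coding transcripts, Myl6 (678 bases) and Pfn1 (734.5), both with separated groups, were shorter than Tmsb4x (768).

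With a smooth trend on length and GC content removed from each library, the median of the 36 was −0.13, with 24 negative. In that fit 11 had separated groups, all with IMP1 lower, where 20.4% of all tested genes had separated groups and 10.7% had IMP1 lower. Gsn (−0.94), Arpc1b (−0.84), Cap1 (−0.74) and Actr3 (−0.46) kept most of their fold change. Actg1 (−0.35), Capzb (−0.36) and Coro1a (−0.35) came closer to 0, and Cfl1 (−0.05) and Pfn1 (−0.04) came nearly to 0. The long transcripts Tln1 (−0.43), Flna (−0.39) and Myh9 (−0.31) became more negative. No gene of the 36 passed in that fit (0 of 36).

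**Figure D4:**
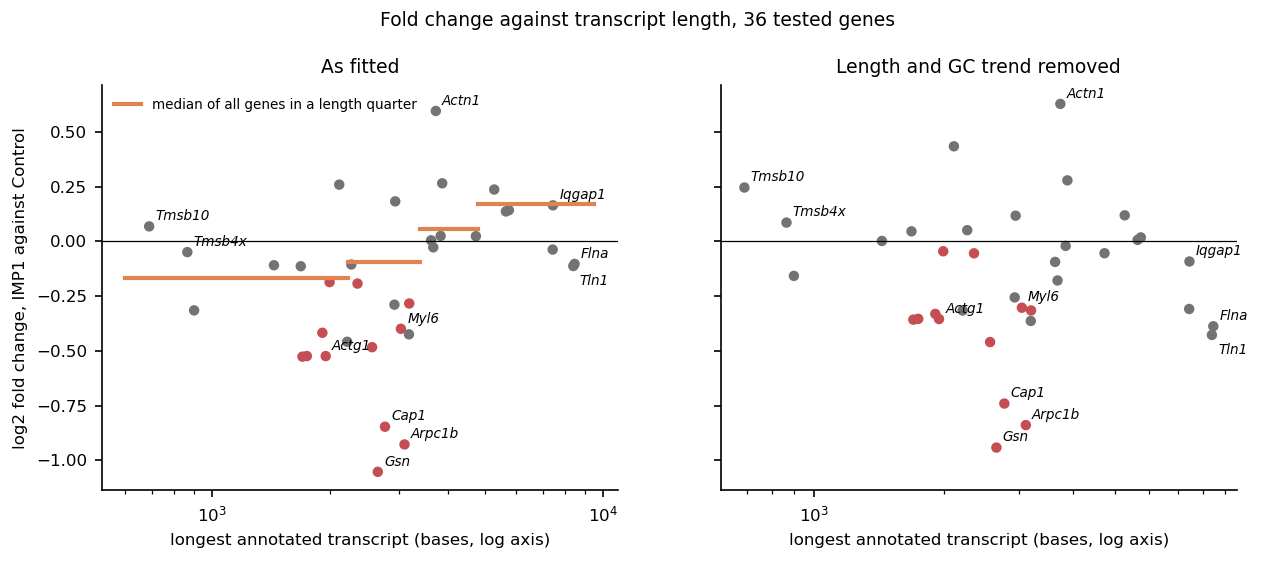
Log2 fold change of the 36 tested genes against the length of the longest annotated transcript (log axis), as fitted on the left and after removal of the trend on length and GC content on the right. Red points are the 12 genes whose libraries did not overlap in the fit on the left, and orange bars give the medians of all abundant genes in 4 bins of length, from −0.17 to 0.17.

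Other genes of the pathway were drawn from 8 lists. These lists too were chosen with earlier results known. Of 139 tested genes in them, 1 passed, Arhgdib, lower in IMP1 cells, where 0.211% of all tested genes passed and 0.141% on the lower side. Arhgdib, a gene of blood cells, stood at 1624, 1911 and 1878 CPM in Control and 826, 846 and 939 CPM in IMP1 libraries (−1.05, SE 0.09, adjusted p = 0.0183). Every IMP1 library was far below every Control library, though the adjusted p ran from 0.0305 to 0.130 with 1 library left out at a time and passed only without Control 1. Cdc42, the GTPase that activates WASP proteins, stood at 1075, 1187 and 1214 CPM in Control and 859.7, 754 and 916 CPM in IMP1 libraries (−0.46, adjusted p = 0.0948). Rock2, the kinase that drives myosin II, stood at 75.6, 105 and 82.8 CPM in Control and 190.4, 200.5 and 146 CPM in IMP1 libraries (1.03, adjusted p = 0.0750), with every IMP1 library above every Control library.

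The regulatory light chain genes Myl12a and Myl12b stood lower in every IMP1 library, as Myl6 did. Myl12b stood at 1197, 1313 and 1272 CPM in Control and 843, 939.9 and 872 CPM in IMP1 libraries (−0.51, adjusted p = 0.0614), and Myl12a at 454, 493 and 516 CPM in Control and 328, 373 and 330.0 CPM in IMP1 libraries (−0.50, adjusted p = 0.0850). Of the 15 tested genes in the list of other myosins and their regulators, Myl12a and Myl12b among them, 0 passed and 7 were negative (median 0.11). Myo1c was among the positive ones, at 20.1 ± 5.22 and 33.3 ± 5.44 CPM. Among 23 other nucleation and WAVE genes, 0 passed, 9 were negative and 14 positive (median 0.14). Every IMP1 library lay above every Control library for 6 of the 23 and below for 4. Over all tested genes these shares were 10.7% and 11.1%. Here the low-level genes Spire1, an actin nucleator, and Fmnl2, a formin, had higher means, at 3.90 ± 0.855 and 15.3 ± 3.73 CPM (1.97, adjusted p = 0.101) and at 18.4 ± 4.37 and 47.2 ± 15.04 CPM (1.36, adjusted p = 0.110). Hcls1, the cortactin of blood cells, had a lower mean, at 141 ± 20.5 and 72.6 ± 23.1 CPM (−0.95, adjusted p = 0.126), and the abundant Brk1 stood at 277 ± 17.05 and 248 ± 16.9 CPM.

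In the list of other crosslinkers and adhesion linkers, 0 of 26 passed, with 9 negative (median 0.25). Fermt3, the kindlin that activates integrins in blood cells, stood at 449.7, 454 and 407 CPM in Control and 279, 180.4 and 288 CPM in IMP1 libraries (−0.81, adjusted p = 0.0991), and its partner Ilk at 292 ± 9.46 and 215 ± 36.96 CPM. Ptk2, focal adhesion kinase, stood at 0.751, 0.910 and 2.96 CPM in Control and at 13.8, 17.9 and 11.4 CPM in IMP1 libraries (3.22, adjusted p = 0.0932). The spectrin gene Sptbn1 was the most abundant of that list, at 312 ± 91.2 and 428 ± 47.6 CPM. Other monomer, turnover and capping genes had 0 of 19 past the threshold and 13 negative (median −0.13), among them Capg (−0.38) and Gmfg (−0.30), with Svil positive (0.85) and the abundant Twf1 at −0.13.

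Other actins and tropomyosins had 0 of 10 past the threshold and a median of 0.03, with Acta1 (−0.61), Tmod1 (−0.82) and Tpm3 (0.10) of lowest p. The transcription factor Srf stood at 11.2 ± 2.75 and 14.2 ± 0.387 CPM (0.34) and its cofactors Mrtfa at 25.1 ± 5.11 and 14.5 ± 2.94 CPM (−0.79, adjusted p = 0.317) and Mrtfb at 92.3 ± 9.50 and 91.1 ± 19.6 CPM (−0.02). Of 22 tubulin, septin and lamin genes 0 passed and 13 were negative (median −0.10), with Stmn1 (−0.35), Septin11 (−0.31) and Lmnb1 (0.98) of lowest p and Tubb5 the most abundant (1761 ± 157 and 1832 ± 92.3 CPM).

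Most of these genes are also expressed in mature blood cells, so marker lists of other cells were read beside them. Monocyte and macrophage markers summed to 468 to 568 CPM in Control and 330.4 to 389.9 CPM in IMP1 libraries, 3 of 6 lower in the IMP1 mean, most of it Lyz2, while Csf1r and Adgre1 stood at 2.38 CPM or less in any library. T and NK markers summed to 212 to 399 and 103 to 112 CPM, 1 of 6 lower and 3 higher in the mean, most of it Nkg7 (adjusted p = 0.0448, lower in IMP1 cells), with Cd3e at most at 0.0433 CPM and Gzma and Gzmb at 0. Klrb1c went the other way, at 2.37, 0.277 and 5.56 CPM in Control and 11.8, 34.1 and 13.9 CPM in IMP1 libraries. Mast and basophil markers summed to 36.0 to 43.9 and 2.45 to 14.7 CPM, 4 of 6 lower, with Cma1 and Gzmb at 0. Neutrophil markers summed to 273 to 315 CPM in Control and to 928, 513 and 231 CPM in the IMP1 libraries, 6 of 10 higher in the mean. Prtn3 made up most of the Control sum, at 234, 245 and 296 CPM. Of the 10, S100a9 and Lcn2 were higher in every IMP1 library, and Prtn3 and Mpo lower. S100a9 stood at 1.95, 4.47 and 1.24 CPM in Control and 189, 106 and 4.72 CPM in IMP1 libraries. Erythroid markers summed to 42.9 to 48.6 CPM in Control and 401, 72.5 and 88.4 CPM in IMP1, 6 of 7 higher, Hbb-b1 passing the threshold (adjusted p = 0.0448). Platelet (353 to 774 and 341 to 545 CPM), B cell (71.6 to 85.5 and 79.9 to 114 CPM) and endothelial or stromal lists (69.9 to 119.9 and 59.2 to 76.5 CPM) overlapped between groups, with Pax5 and Cdh5 at 0. Without IMP1 1, the library with the most neutrophil and erythroid RNA, 13 genes of the 36 had separated groups, all with IMP1 lower, where 32.9% of all tested genes had separated groups and 15.9% had IMP1 lower. Fewer libraries separate more easily, and IMP1 2, with 513 CPM of neutrophil markers, stayed in. With any other library left out, 15 to 18 of the 36 had separated groups, 14 to 15 with IMP1 lower. Over all tested genes these shares were 31.3% to 31.9% and 15.4% to 15.8%.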

How the data were processed

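The authors deposited raw read counts per gene, keyed by Entrez identifier, for 6 libraries of 200 LT-HSCs made with a SMARTer Ultra Low kit, per the labels. TopHat2 2.0.10 and build mm9 are named in the submitters' processing notes. For the counting program, its annotation and strand setting, and its treatment of reads shared between genes, the answer is the same: not given in the sources used here. Reads carry no molecular identifiers, so limits from counts cover counting error only. Among the genes described, Actn4, Arpc4, Cap1, Evl, Pfn1, Vcl and Zyx overlap another gene of the table, and their counts are uncertain to that extent.

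Counts were tested as deposited with edgeR 4.0.16 (R 4.3.3), using TMM scaling, filterByExpr, the quasi-likelihood test on genotype, and Benjamini-Hochberg adjustment over all 12807 genes kept. Standard errors were derived from the fold change and its F statistic, with 95% intervals from the t quantile. DESeq2 1.42.0 and limma 3.58.1 were alternatives, as were other scalings and filters, thinning to equal depth, removal of a length and GC trend, a replicate term and leaving out each library. The test was tried on simulated data. Symbols came from the RefSeq GRCm38.p6 table (21615 of 21761 identifiers matched) and lengths from GENCODE M21. Libraries of a group differed by far more than sampling noise (chi-square per degree of freedom at least 61.0), so each counted as 1 replicate.

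The genes and all lists were chosen with earlier results of these data known. Values in every library are given for the 12 genes of lowest p, the 6 most abundant and both genes of related pairs, other genes of the set as means, and from each other list genes past the threshold, the 3 of lowest p and the most abundant; a few further genes were given per library after their values were seen. The count over 1 of the pathway lists and the value of 1 marker gene are not reported here.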

Additional observations from a re-analysis of the deposited data

How the results depend on the processing

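Depth differed with genotype, the libraries came from few cells, and 3 against 3 libraries limit what can be called. Of the 36 genes, 22 kept their direction in all 17 alternatives that gave a fold change (17 negative, 5 positive), among them all 12 with separated groups, and 14 reversed in at least 1. For those 12, leaving out 1 library could hardly reverse the direction, since every IMP1 library lay below every Control library. Their constancy in those fits therefore adds nothing to the separation itself. The number called was 0, but 1 with the strict filter on low counts, 8 with DESeq2 and 3 at an adjusted p under 0.10. The median fold change of −0.11 was −0.0176 on library totals alone, where the median over all tested genes likewise moved up, from 0.03 to 0.12, and ran from −0.16 to −0.0778 with 1 library left out. Over the whole table the 27 calls became 16 on library totals, 127 with the strict filter, 694 with DESeq2, 11 with limma-voom, 49 with edgeR's newer dispersion method, 13 with the length and GC trend removed, 231 at an adjusted p under 0.10, and 0 to 2 with 1 library left out. The 1 call in the pathway lists became 3 with the strict filter (1.12% of all tested genes), 14 with DESeq2 (5.55%), 2 with the newer dispersion method, and 0 to 1 with 1 library left out. The cause was not tested.

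Same-numbered libraries did not deviate together (residual correlations 0.0231, 0.0251 and −0.00394), so the numbers were not taken as pairs. With a replicate block 4 genes of the whole table passed and 0 of the 36, the median stayed at −0.11, and Actr2 (−0.0128) and Flna (0.0330) reversed.

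Other reversals were of small fold changes. Scalings that moved all genes up together (median 0.06 with upper quartile scaling, 0.12 on library totals) carried values just below 0 across it, and these crossings say nothing particular of the genes: Capza2 came to 0.00137 and 0.0664, and on library totals Tmsb4x to 0.0435 and Myh9 to 0.0553. Flna came to 0.0150 with limma-voom. With the length and GC trend removed, Arpc1a (0.0461), Arpc2 (0.0021), Arpc4 (0.0514), Actr2 (−0.0937), Wipf1 (−0.0539), Tmsb4x (0.0861), Lcp1 (−0.0203) and Iqgap1 (−0.0916) reversed. With 1 library left out, the ranges spanned 0 for Actr2 (−0.17 to 0.11), Wasf2 (−0.11 to 0.51), Tmsb4x (−0.18 to 0.0612), Flna (−0.46 to 0.13), Wipf1 (−0.27 to 0.26), Capza2 (−0.11 to 0.0370), Lcp1 (−0.13 to 0.20), Diaph1 (−0.0672 to 0.25), Myh9 (−0.13 to 0.0480) and Was (−0.00128 to 0.40).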
